A study of Mus musculus with 6 samples.

Results

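The genes described here encode the enzymes that make prostaglandins and thromboxane and the receptors through which prostaglandin E2 (PGE2) raises cyclic AMP. They are Ptgs1, Ptgs2, Ptges, Ptges2, Ptges3, Ptgis, Tbxas1, Hpgds, Ptger2 and Ptger4, and they were chosen by gene name as 10 of the 54532 genes listed in the deposited expression table. RNA sequencing was performed on mouse bone marrow-derived macrophages (BMDMs) after co-culture with ID8, a tumour cell line of mouse ovarian surface epithelium. Beforehand the ID8 cells of 3 libraries had been exposed to 40 µM cisplatin, which crosslinks DNA, and those of the other 3 to phosphate-buffered saline (PBS), so the drug was given to the tumour cells before the co-culture. The marrow came from C57BL/6 mice aged 6 to 8 weeks, and no genetic alteration is named for either group. The methods speak of marrow monocytes seeded in medium with serum and name no growth factor, and the length of the co-culture and the way the marrow cells were parted from the tumour cells are not given in the sources used here. The methods speak of biological replicates and triplicate experiments and do not say whether those of the sequencing were separate mice, marrow preparations or wells, so the p-values measure only the spread between these libraries, which may be partly technical.

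Prostanoids are lipid mediators made from arachidonic acid. The cyclooxygenases COX-1 and COX-2 convert arachidonic acid to prostaglandin H2, and a terminal synthase then turns this common precursor into PGE2, prostacyclin, prostaglandin D2 or thromboxane A2. Macrophages are a known source of PGE2, which acts back on myeloid cells through the Gs-coupled receptors EP2 and EP4 and is known for damping inflammatory and antitumour responses. The comparison addresses whether genes of this pathway differed in macrophages that had met cisplatin-exposed tumour cells.

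Of the 10 genes, Tbxas1 was upregulated with cisplatin, Ptgs2 and Ptgis were downregulated, and 7 did not meet both criteria of a call. A call needed an adjusted p under 0.05 (limma with Benjamini-Hochberg adjustment over all 13441 genes tested) together with an absolute log2 fold change no smaller than 1. Expression is given as FPKM, the fragments on a gene per kilobase of its length, divided by a total for the library, so that levels can be set beside each other across genes, and fold changes were taken on log2(FPKM + 1), cisplatin against PBS. By these criteria 4.67% of all genes tested were called higher and 11.3% lower. By the adjusted p alone, 4 of the 10 were higher, 5 were lower and Ptges3 did not pass, against 32.9% of all genes higher and 35.1% lower. The 4 higher were Tbxas1, Hpgds, Ptger2 and Ptger4, and the 5 lower were Ptgs1, Ptgs2, Ptges, Ptges2 and Ptgis, directions that held under every scaling tried except that by Y-linked genes, where Ptger4 turned. The 3 values of each group did not overlap for 9 of the 10 genes, and this held for 72.4% of all genes tested (35.2% higher and 37.2% lower with cisplatin). The median log2 fold change of the 10 was -0.075, and that of all genes tested was -0.0011. In bulk samples such as these, fewer cells of a type and less RNA per cell cannot be told apart.

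**Figure D1:**
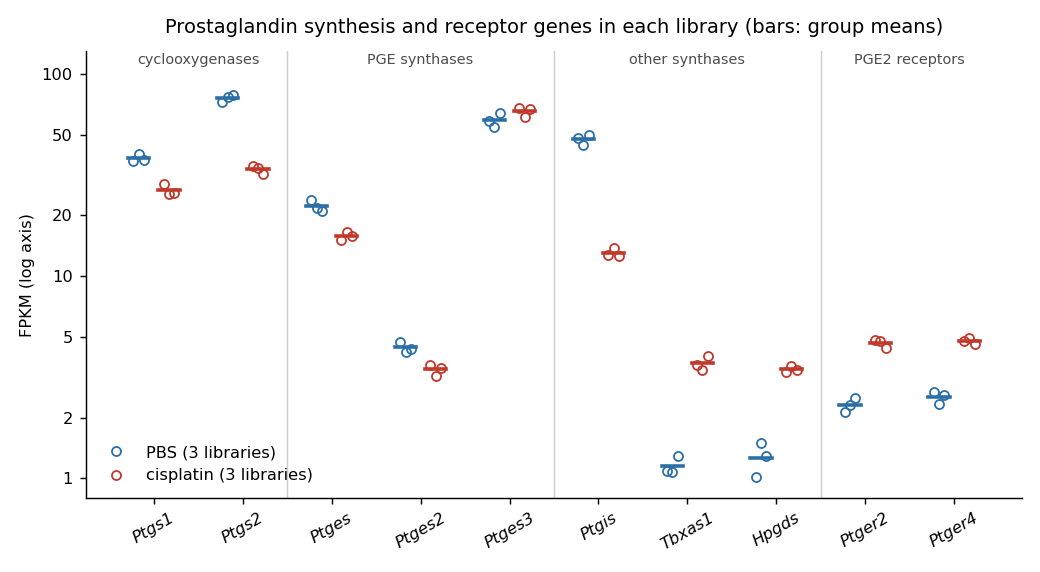
FPKM of the 10 genes on a log axis in each of the 3 PBS libraries (blue) and the 3 cisplatin libraries (red), with bars at the group means and the genes grouped by role. Ptgs1, Ptgs2, Ptges, Ptges2 and Ptgis lie lower in all 3 cisplatin libraries, Tbxas1, Hpgds, Ptger2 and Ptger4 lie higher in all 3, and for Ptges3 the groups overlap, all on FPKM as deposited. Scaling by Y-linked genes turns the sign of Ptges3 and Ptger4.

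Promoter sequence is shown for Ptgs2 and Ptges, which encode the inducible steps of PGE2 synthesis, and for Tbxas1 and Hpgds, which were higher and make other prostanoids. Each line gives the 250 bases before the RefSeq start site on GRCm38.p6, read 5′ to 3′ on the gene's strand. Capitals mark matches, on either strand, to any motif of a fixed list. It held the C/EBP motif TTNNGNAA, the core TGACG of the cyclic AMP response element and its whole form TGACGTCA, the E-box CACGTG bound by MYC and USF factors, the AP-1 motif TGANTCA bound by FOS and JUN, and the TATA box TATAAA. Beside these it held the GC box GGGCGG bound by SP1, the core GAGGAA bound by the ETS factor PU.1 of myeloid cells, the interferon-stimulated response element and the NF-kB site.
Ptgs2, chr1:150099781-150100030, plus strand: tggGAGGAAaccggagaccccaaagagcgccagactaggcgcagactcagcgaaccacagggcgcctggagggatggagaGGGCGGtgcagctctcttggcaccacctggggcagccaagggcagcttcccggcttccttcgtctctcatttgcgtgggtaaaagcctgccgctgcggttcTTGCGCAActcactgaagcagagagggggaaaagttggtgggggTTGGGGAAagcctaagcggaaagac
Ptges, chr2:30903298-30903547, minus strand: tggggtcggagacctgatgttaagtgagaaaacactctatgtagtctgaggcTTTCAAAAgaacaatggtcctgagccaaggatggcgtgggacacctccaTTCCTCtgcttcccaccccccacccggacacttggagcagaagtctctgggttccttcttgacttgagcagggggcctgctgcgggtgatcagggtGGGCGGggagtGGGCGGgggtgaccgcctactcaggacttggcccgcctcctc
Tbxas1, chr6:38918736-38918985, plus strand: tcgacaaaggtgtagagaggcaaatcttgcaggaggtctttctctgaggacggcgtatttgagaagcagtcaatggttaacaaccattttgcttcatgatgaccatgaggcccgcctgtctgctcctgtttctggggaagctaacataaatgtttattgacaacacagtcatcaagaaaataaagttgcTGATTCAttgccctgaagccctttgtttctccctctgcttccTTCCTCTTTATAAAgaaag
Hpgds, chr6:65144731-65144980, minus strand: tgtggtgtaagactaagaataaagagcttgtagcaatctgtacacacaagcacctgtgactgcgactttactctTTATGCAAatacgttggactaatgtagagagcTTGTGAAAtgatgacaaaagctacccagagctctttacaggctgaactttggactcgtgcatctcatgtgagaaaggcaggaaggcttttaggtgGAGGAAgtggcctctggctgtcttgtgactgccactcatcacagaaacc
In the Ptgs2 sequence the C/EBP motif matched at -69 to -62 and at -25 to -18, counted from the start site, and 36.8% of the 32851 RefSeq windows of 250 upstream bases hold such a match. Past the start site, in bases not printed, Ptgs2 matched the core TGACG at 14 to 18 and the E-box at 17 to 22. Of windows that also take in the 50 bases past the start, 20.8% and 7.15% hold these motifs. The Ptges sequence had a GC box at -53 to -48 and another at -42 to -37, a motif found in 32.7% of windows. Tbxas1 had an AP-1 match at -61 to -55 (6.75% of windows) and overlapping TATA box matches at -13 to -8 and -11 to -6 (12.4% of windows), the first of them directly after an ETS core match at -19 to -14. In Hpgds the C/EBP motif matched at -176 to -169 and at -144 to -137. Of the 9 genes with a RefSeq entry, Ptges3 held the one NF-kB match, at -87 to -78, and 7.25% of windows hold that motif. These are matches of letters, which say nothing about binding. The search reached no farther than 250 bases upstream. In ID8 cells, the study placed elements of the Ptges promoter that respond to the NF-kB subunit Rela farther upstream. It did so by reporter assays, ChIP-qPCR and motif mutation, and that region was not searched here. The start sites used for Ptges, Tbxas1, Hpgds and Ptges3 lie inside the gene spans of the expression table, so part or all of the sequence before them is within the gene there, and transcripts that begin elsewhere are not covered.

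The cyclooxygenase genes were both lower with cisplatin, and Ptgs2 passed the fold change threshold. Ptgs2, which encodes the inducible COX-2 (ENSMUSG00000032487, chromosome 1, 150100031 to 150108227, plus strand, GRCm38), stood at 35.0, 34.4 and 32.0 FPKM in cisplatin replicates 1 to 3 and at 72.7, 77.2 and 79.2 FPKM in PBS replicates 1 to 3. The lowest PBS library was above the highest cisplatin library, and the PBS mean was 2.26 times the cisplatin mean. The log2 fold change was -1.15 (SE 0.050, 95% interval -1.27 to -1.04, limma, adjusted p = 1.83e-06). Tested against a log2 fold change of 1 instead of 0, the change of Ptgs2 did not pass (limma treat, adjusted p = 0.0949). Ptgs1, which encodes the constitutive COX-1 (ENSMUSG00000047250, chromosome 2, 36230426 to 36252272, plus strand), stood at 28.6, 25.5 and 25.9 FPKM with cisplatin and at 37.3, 40.2 and 37.7 FPKM with PBS. Here too the groups lay apart, with a log2 fold change of -0.51 (SE 0.055, limma, adjusted p = 0.00016) that missed the fold change threshold. Summed, the cyclooxygenases came to 57.9 to 63.6 FPKM in the cisplatin libraries and to 110.0 to 117.3 FPKM in the PBS libraries.

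The balance between the cyclooxygenases differed as well. Within a library, Ptgs2 stood at 1.23, 1.35 and 1.24 times the FPKM of Ptgs1 with cisplatin and at 1.95, 1.92 and 2.10 times with PBS. Since both genes are read in the same library, this ratio does not depend on how libraries were scaled to each other. The difference between the genes was 0.33 ± 0.072 log2 units with cisplatin and 0.97 ± 0.068 with PBS (mean ± SD, n = 3 each, exact permutation test, two-sided, p = 0.1, adjusted p = 0.15 over the 6 gene pairs compared). With 3 libraries against 3, 0.1 is the smallest p this test can give, so it cannot reach 0.05.

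The PGE synthase genes showed no call on FPKM as deposited, while scaling by Y-linked genes made Ptges and Ptges2 calls. Ptges encodes microsomal PGE synthase 1, the inducible enzyme that works with COX-2 (ENSMUSG00000050737, chromosome 2, 30889471 to 30929863, minus strand). It stood at 15.1, 16.6 and 15.8 FPKM with cisplatin and at 23.9, 21.7 and 21.01 FPKM with PBS. All 3 cisplatin libraries were below all 3 PBS libraries, and the log2 fold change of -0.46 (SE 0.060, 95% interval -0.60 to -0.32, limma, adjusted p = 0.000439) missed the threshold. Ptges2, which encodes microsomal PGE synthase 2 (ENSMUSG00000026820, chromosome 2, 32395896 to 32405772, plus strand), stood at 3.65, 3.21 and 3.51 FPKM with cisplatin and at 4.72, 4.23 and 4.39 FPKM with PBS. The groups did not overlap, and the log2 fold change was -0.29 (SE 0.068, limma, adjusted p = 0.00752), which after quantile normalisation was -0.16 and no longer passed (limma, adjusted p = 0.0708). Ptges3 encodes the cytosolic PGE synthase, also known as p23, a co-chaperone of HSP90 (ENSMUSG00000071072, chromosome 10, 128058954 to 128077272, plus strand). It stood at 67.9, 61.3 and 67.0 FPKM with cisplatin and at 58.7, 54.9 and 64.6 FPKM with PBS. The groups overlapped, and the log2 fold change of 0.14 (SE 0.068, 95% interval -0.02 to 0.30, limma, adjusted p = 0.113) did not pass. It was 0.085 without PBS replicate 2, and it passed at 0.20 without PBS replicate 3 (limma, adjusted p = 0.0285) and at 0.20 after quantile normalisation (limma, adjusted p = 0.03).

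Against COX-2, the PGE synthase Ptges was relatively higher with cisplatin although its own level was lower. Ptges stood at 0.432, 0.483 and 0.495 times the FPKM of Ptgs2 in the cisplatin libraries and at 0.328, 0.281 and 0.265 times in the PBS libraries. The difference between the pair was -1.05 ± 0.0997 log2 units with cisplatin and -1.74 ± 0.154 with PBS (mean ± SD, n = 3 each, exact permutation test, two-sided, p = 0.1, adjusted p = 0.15). Between Ptges and Ptges2 the difference was 1.92 ± 0.136 with cisplatin and 2.09 ± 0.050 with PBS, and these groups overlapped (mean ± SD, n = 3 each, exact permutation test, two-sided, p = 0.2, adjusted p = 0.24). The 3 PGE synthases together came to 81.2 to 86.6 FPKM with cisplatin and to 80.8 to 90.0 FPKM with PBS, ranges that overlap, and most of either sum was Ptges3.

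The other terminal synthases moved in opposite directions. Ptgis encodes prostacyclin synthase, best known from endothelium and smooth muscle (ENSMUSG00000017969, chromosome 2, 167191805 to 167240604, minus strand). It stood at 12.7, 13.8 and 12.5 FPKM with cisplatin and at 48.1, 44.8 and 50.1 FPKM with PBS. Every PBS library was above every cisplatin library, and the PBS mean was 3.66 times the cisplatin mean, the largest ratio of group means among the 10 genes. The log2 fold change was -1.80 (SE 0.058, 95% interval -1.93 to -1.66, limma, adjusted p = 5.04e-07). Tbxas1 encodes thromboxane A synthase, known from platelets and macrophages (ENSMUSG00000029925, chromosome 6, 38875404 to 39084585, plus strand). It stood at 3.65, 3.45 and 4.05 FPKM with cisplatin and at 1.09, 1.08 and 1.28 FPKM with PBS. The groups lay apart, with the cisplatin mean 3.23 times the PBS mean and a log2 fold change of 1.13 (SE 0.084, 95% interval 0.93 to 1.33, limma, adjusted p = 2.49e-05). Tbxas1 did not pass when tested against a log2 fold change of 1 (limma treat, adjusted p = 0.672).

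Hpgds, which encodes the haematopoietic prostaglandin D synthase known from mast cells, T helper cells and some macrophages (ENSMUSG00000029919, chromosome 6, 65117293 to 65144908, minus strand), lay at the threshold. It stood at 3.38, 3.60 and 3.44 FPKM with cisplatin and at 1.01, 1.49 and 1.28 FPKM with PBS, and the groups did not overlap. The cisplatin mean was 2.75 times the PBS mean, and the log2 fold change of 0.99 (SE 0.096, 95% interval 0.76 to 1.22, limma, adjusted p = 9.74e-05) was just short of a call. Without cisplatin replicate 1 it was 1.0045 and without PBS replicate 2 it was 1.06, and either made it a call.

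Relative to Ptges in the same library, both low synthases were higher with cisplatin. Hpgds stood at 0.223, 0.217 and 0.217 times the FPKM of Ptges with cisplatin and at 0.0424, 0.0687 and 0.0611 times with PBS. For Tbxas1 the ratios were 0.241, 0.208 and 0.256 with cisplatin and 0.0456, 0.0499 and 0.0611 with PBS. The log2 differences of Hpgds from Ptges were -1.91 ± 0.028 and -3.36 ± 0.235, and those of Tbxas1 were -1.84 ± 0.130 and -3.43 ± 0.153, cisplatin first (mean ± SD, n = 3 each, exact permutation test, two-sided, p = 0.1 and adjusted p = 0.15 for each). No cisplatin library reached the range of the PBS libraries in either pair.

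**Figure D2:**
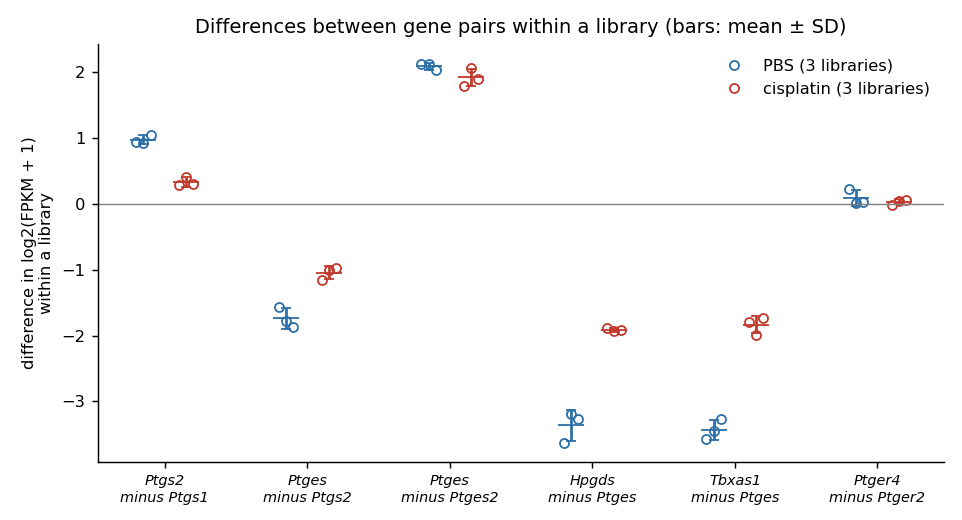
Difference in log2(FPKM + 1) between 2 genes of the same library for 6 gene pairs, with points for libraries (3 PBS in blue, 3 cisplatin in red) and bars for the group mean ± SD. The groups lie apart for Ptgs2 minus Ptgs1, Ptges minus Ptgs2, Hpgds minus Ptges and Tbxas1 minus Ptges, and overlap for Ptges minus Ptges2 and Ptger4 minus Ptger2.

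The PGE2 receptor genes were both higher with cisplatin by the adjusted p but short of the fold change threshold, and neither kept this when libraries were scaled by Y-linked genes, where Ptger4 changed sign. Ptger2 encodes EP2 (ENSMUSG00000037759, chromosome 14, 44988195 to 45003820, plus strand). It stood at 4.85, 4.79 and 4.396 FPKM with cisplatin and at 2.13, 2.31 and 2.51 FPKM with PBS, groups that did not overlap (log2 fold change 0.78, SE 0.071, limma, adjusted p = 7.42e-05). Ptger4 encodes EP4 (ENSMUSG00000039942, chromosome 15, 5206661 to 5244187, minus strand). It stood at 4.80, 4.96 and 4.64 FPKM with cisplatin and at 2.67, 2.33 and 2.58 FPKM with PBS, again with no overlap (log2 fold change 0.72, SE 0.065, limma, adjusted p = 6.87e-05). The cisplatin means were 2.02 and 1.90 times the PBS means. Both receptors stood at nearly the same level as each other, with a within-library difference, Ptger4 minus Ptger2, of 0.03 ± 0.038 log2 units with cisplatin and 0.09 ± 0.122 with PBS (mean ± SD, n = 3 each, exact permutation test, two-sided, p = 0.7, adjusted p = 0.7). Summed, they came to 9.03 to 9.75 FPKM with cisplatin and to 4.64 to 5.09 FPKM with PBS.

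The calls of Hpgds, Ptger2 and Ptger4 differed between log2(FPKM + 1) and limma voom on reads recovered from FPKM and gene length, a fit that changes the library totals and the variance model together with the scale. A pseudocount of 0.1 in place of 1 made Hpgds a call (1.41) and left Ptger2 (0.98) and Ptger4 (0.90) uncalled. Tbxas1 had 515 to 608 reads with cisplatin and 153 to 181 with PBS, and Hpgds had 365 to 380 and 115 to 149. With limma voom on these reads, which called 9.13% of all genes higher and 13.9% lower, all 4 were called higher, with log2 fold changes of 1.78 for Tbxas1 (SE 0.112, adjusted p = 6.63e-11), 1.57 for Hpgds (SE 0.131, adjusted p = 3.61e-09), 1.10 for Ptger2 (SE 0.103, adjusted p = 1.98e-08) and 1.01 for Ptger4 (SE 0.090, adjusted p = 9.45e-09). Ptgs2 and Ptgis were called lower there too, with -1.09 and -1.79. Ptges3 passed the adjusted p there at 0.23 (SE 0.059, limma voom, adjusted p = 0.00201), short of a call.

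The order of the 10 genes by level also differed between the groups. With PBS it ran Ptgs2, Ptges3, Ptgis, Ptgs1, Ptges, Ptges2, Ptger4, Ptger2, Hpgds and Tbxas1 from highest to lowest FPKM, and the neighbours whose values overlapped were Ptger4 with Ptger2 and Hpgds with Tbxas1. With cisplatin it ran Ptges3, Ptgs2, Ptgs1, Ptges, Ptgis, Ptger4, Ptger2, Tbxas1, Hpgds and Ptges2, with overlap between Ptger4 and Ptger2, Tbxas1 and Hpgds, and Hpgds and Ptges2. Ptgs2 made up 29.9% ± 1.01 of the summed FPKM of the 10 genes with PBS and 19.3% ± 0.791 with cisplatin, and Ptgis 18.6% ± 0.644 and 7.45% ± 0.529 (SD, n = 3 each). Ptges held 8.68% ± 0.759 and 9.08% ± 0.628, shares whose spreads overlap. Among all genes tested, the mean level of Tbxas1 stood at the 6.09th percentile with PBS and at the 33.6th with cisplatin, and that of Ptgis at the 92.1st and the 68.2nd.

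The change of every gene also depended on the RNA that the libraries were scaled against. Ddx3y, a Y-linked gene that only male cells can carry, stood at 19.2 ± 0.662 FPKM with cisplatin and at 8.10 ± 0.520 FPKM with PBS (mean ± SD, n = 3 each, log2 fold change 1.15, limma, adjusted p = 3.15e-06). The Y-linked genes Eif2s3y (0.68), Kdm5d (0.73) and Uty (0.55) changed in the same direction but less. Xist, which is made by cells with more than a single X chromosome, stood at 7.79 ± 0.194 and 42.7 ± 5.35 FPKM (mean ± SD, n = 3 each, log2 fold change -2.31, limma, adjusted p = 8.79e-07). The sex of the marrow donors is not given in the sources used here. With libraries scaled by the sum of 4 Y-linked genes, the median over all genes tested became -0.81. Under it the log2 fold changes were -1.46 for Ptgs1, -2.11 for Ptgs2, -1.38 for Ptges, -1.06 for Ptges2, -0.82 for Ptges3 and -2.72 for Ptgis, so Ptges3 reversed and Ptgs1, Ptges and Ptges2 became calls beside Ptgs2 and Ptgis. Tbxas1 (0.48, limma, adjusted p = 0.00443) and Hpgds (0.33, limma, adjusted p = 0.0259) remained higher by the adjusted p, while Ptger2 (0.03, limma, adjusted p = 0.82) and Ptger4 (-0.04, limma, adjusted p = 0.711) did not pass. Scaled by their own sum, the 4 Y-linked genes still ran from -0.23 (Eif2s3y) to 0.25 (Ddx3y). This scale is therefore uncertain by about that much, and scaling by each of them alone was not tested.

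**Figure D3:**
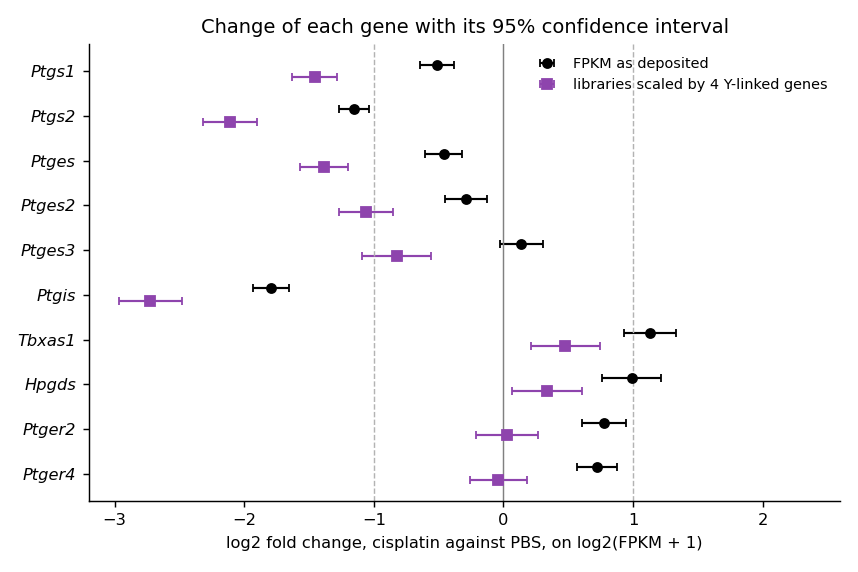
Log2 fold change of each of the 10 genes, cisplatin against PBS, on the log2(FPKM + 1) scale with its 95% confidence interval, for the FPKM as deposited (black circles) and with libraries scaled by 4 Y-linked genes (purple squares). Dashed lines mark the threshold of 1 in either direction. Ptges3 (0.14 to -0.82) and Ptger4 (0.72 to -0.04) change sign between the scalings, and Tbxas1 and Hpgds stay above 0.

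Markers of the cell types that such a culture could hold moved with the groups, and their part in the results above was not tested. Over all genes tested, 4.67% were called higher and 11.3% lower. On FPKM as deposited, all 8 macrophage markers were higher with cisplatin and 3 were called (1 of them, Mertk, passed the filter through the cisplatin libraries alone), with a summed level of 4187 to 4341 FPKM against 1636 to 1647 with PBS and Lyz2, which encodes lysozyme, the most abundant (3459 ± 80.4 against 1161 ± 10.8 FPKM, SD, n = 3 each). Of 11 ID8 and mesothelial markers, 8 were tested and all 8 were lower, 7 of them called, with a summed level of 230.5 to 250.9 FPKM against 1283 to 1385 and the keratin gene Krt19 the most abundant (51.1 ± 3.80 against 588 ± 28.8 FPKM, SD, n = 3 each). Beside Hpgds, 6 of 8 mast cell markers were tested and higher, 4 of them called, with a summed level of 76.2 to 83.5 FPKM against 29.9 to 31.7. The protease gene Cpa3 led that list (34.7 ± 4.70 against 9.61 ± 1.38 FPKM, SD, n = 3 each), and Mcpt4 was listed at 0 in all 6 libraries. Beside Tbxas1, 4 of 7 megakaryocyte and platelet markers were tested and 3 called higher, with a summed level of 255.0 to 279.7 FPKM against 27.8 to 33.1. Most of that sum was platelet factor 4, Pf4 (204.9 ± 9.99 against 16.99 ± 2.45 FPKM, SD, n = 3 each), and Ppbp (46.9 ± 3.36 against 6.70 ± 1.62). Gp1ba did not pass and its groups overlapped (log2 fold change 0.05, limma, adjusted p = 0.782). Below the filter, Gp6 was lower with cisplatin (0.0439 against 0.202 FPKM) and Gp9 had a higher mean (0.703 against 0.360 FPKM), while Gp1bb was listed at 0 in all 6. Of the neutrophil list all 7 were tested and 4 called higher (8730 to 8981 against 4729 to 4891 FPKM in sum, most abundant S100a9 with 5233 ± 126 against 3105 ± 134). Of the 7 lymphocyte markers 4 were tested and 3 called higher (262.3 to 268.5 against 109.1 to 116.8 FPKM in sum, Cd79a with 146.7 ± 6.34 against 63.9 ± 3.62), both as mean ± SD with n = 3 each. Of 5 dendritic cell markers 2 were tested, and they went opposite ways, each passing the filter through 1 group alone: Flt3 stood at 2.14 ± 0.123 against 0.548 ± 0.1 FPKM and Zbtb46 at 0.609 ± 0.026 against 1.60 ± 0.095 FPKM, in a list with a sum of 3.29 to 3.62 against 2.44 to 2.77 FPKM. Scaling by Y-linked genes turned the sign of 5 of 8 macrophage, 2 of 6 mast cell, 1 of 4 megakaryocyte and platelet, 3 of 7 neutrophil and 1 of 4 lymphocyte markers tested and of none of the 8 ID8 and mesothelial markers. Under it the median was -0.067 for the macrophage list, -3.15 for the ID8 and mesothelial list, 0.37 for the mast cell list and 1.01 for the megakaryocyte and platelet list.

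**Figure D4:**
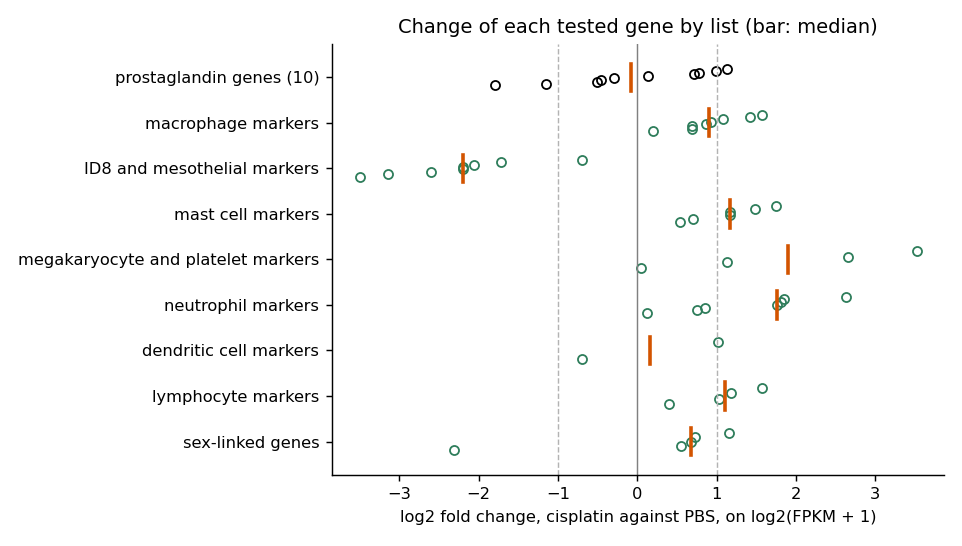
Log2 fold change, cisplatin against PBS, of each tested gene of the 10 prostaglandin genes (black) and of the marker lists (green), with orange bars at the medians and dashed lines at 1 in either direction. The ID8 and mesothelial markers have a median of -2.19 and the macrophage markers of 0.90, while the prostaglandin genes spread from -1.80 to 1.13, all on FPKM as deposited. Scaling by Y-linked genes reverses Ptges3 and Ptger4, 5 macrophage, 2 mast cell, 1 megakaryocyte and platelet, 3 neutrophil and 1 lymphocyte genes. It also turns Eif2s3y and Uty, which are among the genes whose sum sets the scaling, so their turn is not a separate result.

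Genes of the same pathway outside the 10 were described from a list of 21, of which 14 passed the filter on low values. None was called higher by limma and Ptgfrn was called lower, while by the adjusted p alone 8 were higher and 3 lower (the same counts as at an unadjusted p under 0.05), and limma voom called 3 higher. Over all genes tested these shares were 4.67% higher and 11.3% lower by both criteria, 32.9% and 35.1% by the adjusted p alone, and 9.13% higher by limma voom. The median log2 fold change of the 14 was 0.30, and scaling by Y-linked genes made it -0.45 and turned the sign of 8 of the 14. Ptgfrn, which encodes a membrane protein that associates with the prostaglandin F receptor and tetraspanins, stood at 1.96 ± 0.061 FPKM with cisplatin against 15.9 ± 0.538 with PBS (mean ± SD, n = 3 each, log2 fold change -2.51, limma, adjusted p = 9.08e-08). Among receptors, Ptger3, which encodes the Gi-coupled PGE2 receptor EP3, stood at 1.60, 2.24 and 1.48 FPKM with cisplatin and at 0.407, 0.451 and 0.487 FPKM with PBS. Tbxa2r, the thromboxane receptor gene, stood at 1.13, 1.71 and 1.61 FPKM and at 0.324, 0.368 and 0.403 FPKM. The groups did not overlap for either receptor, but both reached the minimum of 1 FPKM in the cisplatin libraries alone, so they were tested only because they were high there, and no p is given for them although they count among the 8 and among the 3 called by limma voom.

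The prostacyclin receptor gene Ptgir stood at 8.598 ± 0.120 FPKM with cisplatin and 6.23 ± 0.675 FPKM with PBS (mean ± SD, n = 3 each, log2 fold change 0.41, limma, adjusted p = 0.0021), with a sign that turned under scaling by Y-linked genes (-0.45). Abcc4, which encodes an exporter of PGE2, stood at 10.8 ± 0.682 and 9.42 ± 0.343 FPKM (mean ± SD, n = 3 each, log2 fold change 0.18, limma, adjusted p = 0.025) and turned in the same way (-0.71). Pparg, a nuclear receptor that binds prostaglandin D2 metabolites, did not pass at 1.27 ± 0.288 and 1.06 ± 0.288 FPKM (mean ± SD, n = 3 each, log2 fold change 0.14, limma, adjusted p = 0.408). Genes of prostaglandin breakdown stood at very different levels. Ptgr1, which encodes a prostaglandin reductase, stood at 79.8 ± 2.78 FPKM with cisplatin and 105.7 ± 2.65 FPKM with PBS (mean ± SD, n = 3 each, log2 fold change -0.40, limma, adjusted p = 9.41e-05), and the reductase gene Zadh2 at 12.8 ± 0.728 and 16.4 ± 1.15 FPKM (log2 fold change -0.34, limma, adjusted p = 0.003), both lower in all 3 cisplatin libraries and short of the fold change threshold. Ptgr2, a further reductase gene, overlapped between the groups at 3.92 ± 0.437 and 3.83 ± 0.087 FPKM (log2 fold change 0.02, limma, adjusted p = 0.796). Hpgd, Slco2a1, Ptgds and Ptger1 lay below the filter and were not tested. The gene of the PGE2-degrading dehydrogenase, Hpgd, lay between 0 and 0.144 FPKM over all 6 libraries, the prostaglandin transporter gene Slco2a1 at 0.0304 to 0.0715 FPKM with cisplatin and 0.0905 to 0.234 FPKM with PBS, and the lipocalin-type prostaglandin D synthase gene Ptgds between 0 and 0.178 FPKM. Ptger1, which encodes EP1, lay between 0.188 and 0.524 FPKM, so of the 4 PGE2 receptor genes it was the lowest.

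Genes that respond to cyclic AMP through CREB, the signal that EP2 and EP4 raise, were listed as 16, of which 13 were tested. Rgs2 was called higher, Nr4a1 and Il10 were called lower, and the median log2 fold change was -0.054. By the adjusted p alone 5 were higher and 5 lower, among them Pde4d (lower), which passed the filter through the PBS libraries alone. Of all genes tested 4.67% were called higher and 11.3% lower, and by the adjusted p alone 32.9% and 35.1%. Scaling by Y-linked genes turned the sign of 3 of the 13. Rgs2, a regulator of G protein signalling, stood at 14.9 ± 0.344 FPKM with cisplatin against 6.24 ± 0.208 with PBS (mean ± SD, n = 3 each, log2 fold change 1.13, limma, adjusted p = 1.25e-06). Its call was lost with limma treat and under scaling by Y-linked genes, where the change was 0.25 (limma, adjusted p = 0.0108). The orphan nuclear receptor gene Nr4a1 stood at 5.54 ± 0.184 FPKM against 19.5 ± 1.31 (mean ± SD, n = 3 each, log2 fold change -1.65, limma, adjusted p = 7.56e-07). Il10, which encodes an anti-inflammatory cytokine, stood at 12.9 ± 2.29 FPKM against 36.3 ± 2.49 (mean ± SD, n = 3 each, log2 fold change -1.44, limma, adjusted p = 4.94e-05), and its call was lost with limma treat. Many other signals act on these genes, and the list moved in no single direction.

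**Figure D5:**
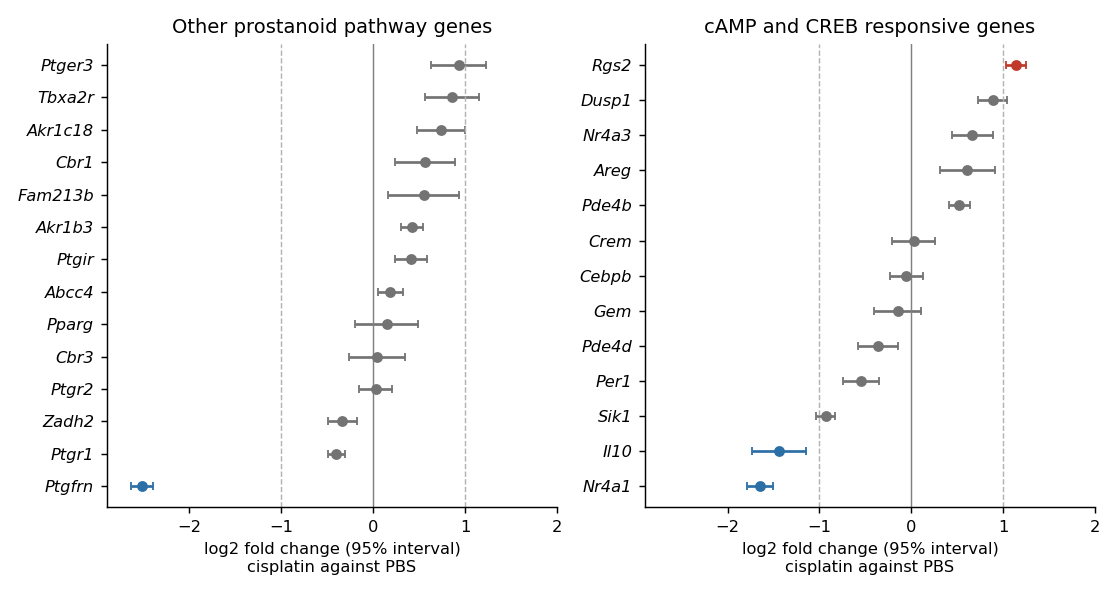
Log2 fold change with its 95% confidence interval, cisplatin against PBS, of the 14 tested genes of the wider prostanoid pathway (left) and the 13 tested genes that respond to cyclic AMP and CREB (right), on FPKM as deposited. Red marks genes called higher, blue genes called lower and grey genes not called, and dashed lines mark 1 in either direction. Ptgfrn, Il10 and Nr4a1 lie below -1 and Rgs2 above 1, and scaling by Y-linked genes turns the sign of 8 genes on the left (Cbr1, Cbr3, Akr1b3, Fam213b, Ptgr2, Abcc4, Ptgir and Pparg) and of 3 on the right (Crem, Pde4b and Dusp1).

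Parts of some genes are shared with another gene on the opposite strand in the GENCODE M21 annotation, and whether counting used strand is not stated. Of the exonic bases of Ptger4, 15.3% lie in exons of Gm15937, which was listed at 0 in all libraries, and 1.23% in those of Ttc33, which reached 15.5 FPKM. The shared part was 6.08% for Ptgis with 1110018N20Rik, 4.74% and 2.77% for Ptger2 with Gm17173 and Gm49364, 3.81% for Ptgs1 with Gm43621 and 1.58% for Tbxas1 with Gm42962. The exons of Ptgs2, Ptges, Ptges2, Ptges3 and Hpgds were shared with no other gene.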

How the data were processed

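The authors deposited FPKM values for 54532 genes in 6 libraries (3 per group), made from poly-T selected RNA. The submitters' processing notes name fastp, HISAT2 2.0.5, featureCounts 1.5.0-p3 and the mm10 build, whereas the study's methods name LifeScope for alignment and counting and DESeq2 for testing, and which of these made the table is not stated. Multiplied by gene length, 100% of the values worth fewer than 200 reads were whole reads (within 0.05 reads), and these reads summed to 15776238 to 16396353 per cisplatin library and 15907567 to 17924686 per PBS library. The total by which FPKM had been divided was 103.7% to 104.1% of these reads with cisplatin but 97.4% to 98.7% with PBS. Each of the 10 genes had 115 reads or more in every library, and counting error was not estimated apart from the spread between libraries.

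The 13441 genes with at least 1 FPKM in at least 3 libraries were transformed to log2(FPKM + 1), which understates changes of low genes, and fitted on all 6 libraries with the group as the term in limma 3.58.1 under R 4.3.3 (eBayes with a trend). The fold change threshold is that of the study's methods. Differences between 2 genes of a library were compared by exact permutation tests with Benjamini-Hochberg adjustment over 6 pairs. The fit was tested on simulated data. Promoters came from the RefSeq table for GRCm38.p6, which matched 9 of the 10 genes, and the coordinates of the 10 genes were those of GENCODE M21.

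The 10 genes and the gene lists were chosen with earlier results of these data known. Named were the 10 genes, 9 preset genes of the wider pathway, called genes of the pathway and cyclic AMP lists whose groups did not overlap (up to 6 each), the most abundant gene of each marker list with any gene at 0 throughout, Ddx3y and Xist. Ptgr1, Ptgr2, Zadh2, Zbtb46, Pde4d, Mertk, Ppbp, Gp1ba, Gp6, Gp9, Eif2s3y, Kdm5d, Uty and the genes named only for a sign that turned were chosen after their values were seen. Alternatives were other pseudocounts, filters, scalings, variance models, thresholds and gene sets, limma voom on the recovered reads, a replicate block, and leaving out each library.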

Additional observations from a re-analysis of the deposited data

How the results depend on the processing

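Counts are given as higher, then lower, beside those reported for the 10 genes (1 and 2), the wider pathway (0 and 1), the cyclic AMP list (1 and 2) and all genes (628 and 1514). Of the 10 genes, 2 were called higher with a pseudocount of 0.1, with TPM rescaling or with quantile normalisation, 4 with limma voom, and 0 with a filter at 5 FPKM, which left Tbxas1 untested. By the adjusted p alone the counts were 4 and 5, 8 and 3, 5 and 5, and 4424 and 4721. With limma treat the 10 genes gave 0 and 1, the cyclic AMP list 0 and 1, and all genes 240 and 982. Scaling by Y-linked genes gave 0 and 5 of the 10, 3 of the wider pathway lower, 0 and 5 of the cyclic AMP list, and 87 and 5037 of all genes (1.7% of calls higher against 29.3%), and it reversed Ptges3 (-0.82) and Ptger4 (-0.040). TPM rescaling gave 874 and 1882 of all genes and quantile normalisation 835 and 1290, the latter with a median of all genes of 0.10 and 39.3% of calls higher. In the wider pathway 3 genes were called higher with a pseudocount of 0.1 or limma voom, and 2 with TPM rescaling or quantile normalisation. In the cyclic AMP list 2 were called higher with a pseudocount of 0.1 and 4 with limma voom. Over all genes, a pseudocount of 0.1 gave 973 and 1981 and limma voom 1227 and 1862. The differences Hpgds minus Ptges and Tbxas1 minus Ptges between groups moved from 1.45 and 1.59 to 1.89 and 2.09 with a pseudocount of 0.1 and to 1.95 and 2.17 with 0.01. The cause of these shifts was not tested.

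Leaving out each library in turn gave 1 to 2 of the 10 genes called higher and 2 to 2 called lower, 0 to 1 of the wider pathway higher (Ptger3, without cisplatin replicate 3), 622 to 671 of all genes higher and 1513 to 1531 lower. The group difference in Ptger4 minus Ptger2 ranged from -0.097 to 0.014 and changed sign without PBS replicate 1. Libraries with the same number did not deviate together (correlations of -0.104, -0.086 and -0.024). This cannot decide whether the numbers pair them, since paired libraries could share little deviation. The replicate block gave 1 of the 10 genes higher and 2 lower and changed none of their calls, with 625 and 1515 over all genes.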
